A study of Homo sapiens with 32 samples.

Results

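SK-MEL-147 melanoma cells held for 7 days under INK128 were compared, over every expressed gene, with the same cells collected 7 days after the start of treatment with palbociclib. The members were chosen by sample title alone: 4 libraries titled for INK128 and 4 titled for palbociclib, 8 of the 32 libraries of the series. INK128 was used at 100 nM and renewed with the medium every 3 days, so it was present until collection. Palbociclib was used at 1 uM and was left out of the medium after 72 h, so these cells had been in drug-free medium when they were collected. The agent, its presence at collection and the state named in the labels (diapause-like for INK128, senescent for palbociclib) change together and cannot be told apart here. The other SK-MEL-147 groups, 4 untreated libraries and 4 libraries of cells treated with 100 nM doxorubicin for 72 h, were used as reference levels and to estimate the spread. No group carried an engineered allele according to the labels. For INK128 the design text of the series gives a different melanoma line, whereas each of the 4 sample labels gives SK-MEL-147. The labels do not say whether the numbered replicates were separate cultures, so p-values measure only the spread between these libraries, which may be technical.

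INK128 (sapanisertib) blocks the ATP site of the kinase mTOR, which sits in one complex that promotes protein and ribosome synthesis and restrains autophagy, and in another that activates AKT. Palbociclib blocks CDK4 and CDK6, the kinases that cyclin D uses to inactivate the retinoblastoma protein and open the E2F programme of S phase. Senescence is a lasting arrest known for loss of lamin B1, growth of the lysosome compartment and secretion of cytokines, proteases and matrix proteins. Diapause is the reversible dormancy of early embryos, which mTOR inhibition can imitate in embryonic stem cells.

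The 16 SK-MEL-147 libraries held 17929732 to 32407057 counts. Palbociclib replicate 2 held the fewest, and every other library held at least 25610444. On principal components of log2 levels, INK128 and palbociclib libraries lay apart on the first component, which carried 52.4% of the variance, and on the second, which carried 21.2%. The third, with 9.1%, separated replicates 1 and 2 from replicates 3 and 4 within the untreated, palbociclib and doxorubicin groups, and INK128 replicate 1 from INK128 replicates 3 and 4, with INK128 replicate 2 between them. INK128 replicate 1 stood apart from the rest of its group, with an SD of log2 ratios of 0.621 to 0.721 against the other INK128 libraries, which differed among themselves by 0.342 to 0.47. Palbociclib replicate 2 held more transcripts of mitotic genes than its group. Values without these libraries, or within one pair of replicates, are given where they move a result. Melanocyte pigment genes were nearly silent in both groups: MLANA, TYR and PMEL reached at most 0.0377, 0.12 and 2.29 CPM (the library-scaled count, with TMM factors), while the neural crest factor SOX10 stood at 166 to 620 CPM in all 8 libraries. Epithelial markers were counted in both groups, with sums of 476.9 to 873.8 CPM with INK128 and 619.5 to 726.8 CPM with palbociclib. Leukocyte markers summed to 0.72 to 4.43 CPM and endothelial markers to 1.04 to 1.96 CPM over the 8 libraries. PTPRC and CD3E, which define leukocytes, and CDH5, which defines endothelium, stayed at or below 0.111 CPM.

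The drugs left different transcriptomes. Of 18516 genes tested with edgeR's quasi-likelihood test, 9745 (52.6%) had an adjusted p under 0.05, 4960 of them higher with INK128 (26.8%) and 4785 lower (25.8%). More than 1 on the log2 scale separated the groups for 2312 of the higher genes (12.5% of those tested) and 1845 of the lower genes (9.96%). At an unadjusted p under 0.05 the count was 10789 (58.3%). The 4 INK128 and 4 palbociclib libraries did not overlap for 8349 genes (45.1%), 22.7% of those tested higher and 22.3% lower. The median log2 difference over all genes was 0.02. Untreated cells lay nearer to INK128 than to palbociclib for 9666 of all 18516 genes (52.2%), for 2461 of the 4960 higher genes (49.6%) and for 2882 of the 4785 lower genes (60.2%). Doxorubicin, the other drug labelled as inducing senescence, lay nearer to palbociclib for 14511 of all genes tested (78.4%). Because every list is read against these shares, a list with shares near 26.8% higher and 25.8% lower is no different from all genes.

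**Figure D1:**
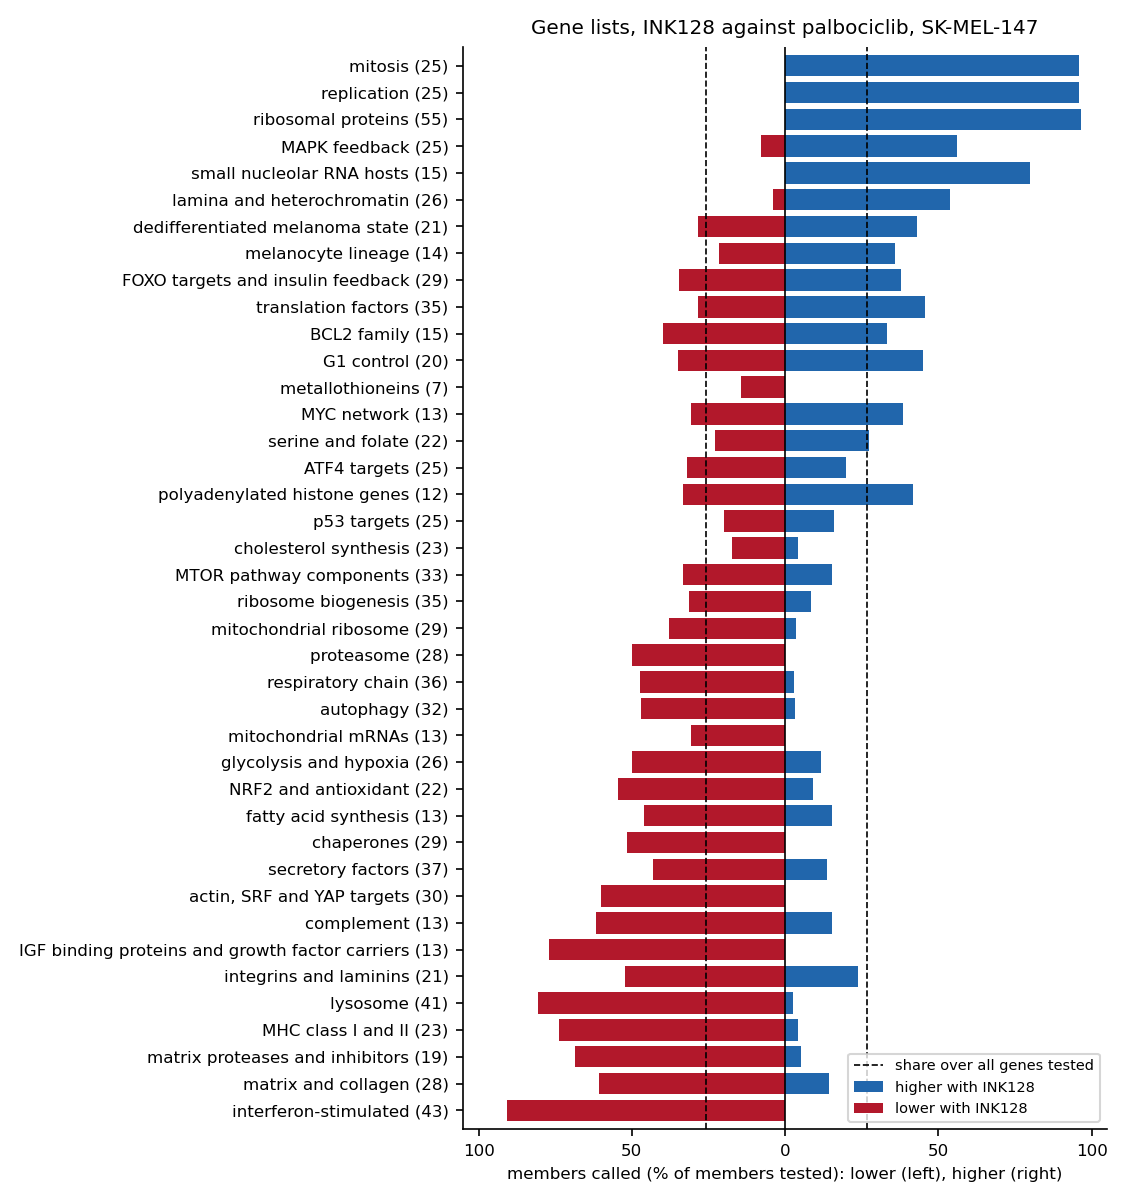
Share of the tested members of each of the 40 gene lists that were called lower (left, red) or higher (right, blue) with INK128 than with palbociclib, in percent, with the number tested in brackets and lists ordered by median log2 difference. The dashed lines mark the shares over all genes, 25.8% lower and 26.8% higher, and the mitosis and interferon-stimulated lists stand at the 2 ends.

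**Figure D2:**
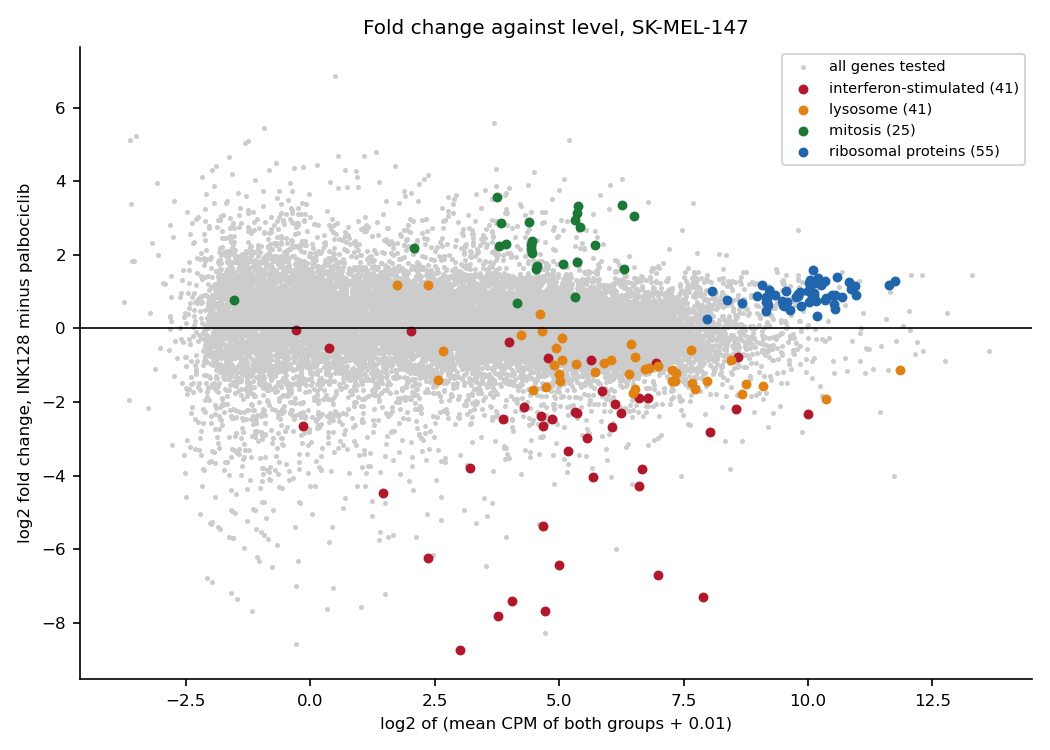
Log2 fold change (INK128 minus palbociclib) against the log2 of the mean CPM of both groups for each gene tested, with 4 lists coloured and genes with 3 or fewer counts in a group left out where the text names them. Ribosomal protein genes form a band above 0 at high levels, mitosis genes lie above 0, and interferon-stimulated and lysosome genes lie mostly below 0.

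Interferon-stimulated genes had the lowest median difference of the 40 lists. These genes encode antiviral proteins and are switched on when type I or type III interferon binds its receptor. Of 43 members tested 39 were lower with INK128, none was higher, and the median log2 difference was -2.66 against 0.02 over all genes. Their summed level was 1426, 1349, 1232 and 1148 CPM in INK128 replicates 1 to 4, and 11190, 7482, 3487 and 3003 CPM in the palbociclib replicates. Untreated libraries summed to 1105 to 1444 CPM, the same range as INK128, and for each of the 43 genes the untreated mean was nearer to the INK128 mean. The palbociclib libraries spread widely, with replicates 1 and 2 above replicates 3 and 4. Doxorubicin libraries shared this level and this order, at 7879, 9823, 3913 and 2859 CPM in replicates 1 to 4. For each of the 43 genes the doxorubicin mean was nearer to the palbociclib mean. Within replicates 3 and 4 alone, 28 members were lower and the median was -1.23; within replicates 1 and 2 alone, 40 were lower and the median was -3.28.

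IFI6 (ENSG00000126709), an interferon-induced mitochondrial and endoplasmic reticulum protein, stood at 6.11, 1.99, 1.92 and 1.84 CPM in the INK128 libraries and at 1097, 549.1, 155 and 75.6 CPM in the palbociclib libraries. The groups did not overlap, and the log2 difference was -7.30 ± 0.97 (SE; edgeR adjusted p = 1.64e-05). ISG15, the ubiquitin-like modifier, fell from 412, 215, 69.2 and 40.9 CPM with palbociclib to 13.9, 7.98, 9.04 and 6.81 CPM with INK128 (-4.29 ± 0.66, edgeR adjusted p = 6.07e-05). The INK128 libraries of both genes lay on either side of the untreated means of 4.61 and 10.6 CPM, and INK128 replicate 1 was the highest of its group. BST2 (tetherin, which holds budding virions at the cell surface) had 1 count in all 4 INK128 libraries against 1777 in the palbociclib libraries, a ratio of scaled levels of 2004 with a 95% counting interval of 359 to 79190. IFITM1, which blocks viral entry, had 4 counts with INK128, and its mean was 506-fold higher with palbociclib. RSAD2 (viperin), OAS2, IFI27, IFIT1, IFI44L and OASL were lower by 7.83, 7.69, 7.41, 6.69, 6.44 and 6.24 on the log2 scale, in that order. XAF1, a pro-apoptotic interferon target, had no count with INK128 and was at least 218-fold higher with palbociclib, taking 3 counts over the INK128 group as the floor, but palbociclib replicate 4 also had none.

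Single genes around this response were read one by one. IRF1, a transcription factor that interferon induces, was lower (-0.81 ± 0.25, edgeR adjusted p = 0.0118), at 17.8 to 23.8 CPM with INK128 and 19.3 to 49.3 CPM with palbociclib, with overlap. IRF9, a transcription factor of the interferon response, stood at 3.16 to 5.7 CPM with INK128 and 1.7 to 6.92 CPM with palbociclib, overlapping (-0.08 ± 0.37, adjusted p = 0.871). The antiviral effector MX1 and the factor IRF7 were also not called, with log2 differences of -0.05 ± 0.31 and -0.52 ± 0.41. Among the sensors of DNA in the cytosol, the adaptor STING1 was lower (-1.75 ± 0.25) and the enzyme CGAS was higher (0.91 ± 0.15). The interferon genes themselves were almost uncounted: IFNB1 and IFNL1 had no count in any INK128 library and reached 0.0717 CPM in palbociclib replicate 1 alone. IRF1, IRF9, CGAS, STING1, IFNB1 and IFNL1 were chosen for their roles in this pathway and not by the rule for named genes.

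Promoters of this list are shown because most of the matched ones carry the interferon-stimulated response element. The core of that element, GAAANNGAAA on either strand, was found in 21 of 35 matched interferon-stimulated promoters (60%), in 7 of 18 promoters of the MHC list (38.9%), in 2.99% of the 10590 matched promoters of coding genes tested and in 3.65% of all 27305 promoter windows of the RefSeq table (GRCh38.p14). The motifs were chosen with earlier results of these data known. Overlapping matches were counted apart. Capitals mark the core in the windows of IFI6 at chr1:27672193-27672362 (minus strand), ISG15 at chr1:1013327-1013496 (plus strand), BST2 at chr19:17405631-17405800 (minus strand) and B2M at chr15:44711347-44711516 (plus strand), each ending at the last base before the annotated start.
IFI6: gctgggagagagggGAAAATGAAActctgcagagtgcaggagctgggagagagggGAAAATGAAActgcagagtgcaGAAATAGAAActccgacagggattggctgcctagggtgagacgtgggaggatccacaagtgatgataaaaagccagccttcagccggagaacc
ISG15: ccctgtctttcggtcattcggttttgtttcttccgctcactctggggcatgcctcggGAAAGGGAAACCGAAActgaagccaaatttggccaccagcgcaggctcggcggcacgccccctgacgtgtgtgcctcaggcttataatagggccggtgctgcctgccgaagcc
BST2: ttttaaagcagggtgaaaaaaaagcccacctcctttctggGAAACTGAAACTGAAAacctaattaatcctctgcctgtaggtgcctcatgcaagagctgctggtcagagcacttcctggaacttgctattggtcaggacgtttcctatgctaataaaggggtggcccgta
B2M: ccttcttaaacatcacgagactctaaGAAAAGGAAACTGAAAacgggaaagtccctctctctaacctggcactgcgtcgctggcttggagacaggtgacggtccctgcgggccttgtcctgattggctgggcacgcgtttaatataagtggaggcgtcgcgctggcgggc

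Genes of antigen presentation were lower with INK128 too, though fewer of them. Class I molecules show peptides from inside the cell to CD8 T cells and need the light chain B2M and the peptide pump TAP1. Of 23 members of the MHC class I and II list 17 were lower and 1 was higher, with a median of -1.15. B2M stood at 564, 578, 572 and 492 CPM with INK128 and at 2945, 2323, 1426 and 1114 CPM with palbociclib, without overlap (-1.82 ± 0.30, edgeR adjusted p = 0.000123). HLA-B was at 205, 262, 345 and 237 CPM against 1641, 1339, 788 and 714 CPM (-2.10 ± 0.35), although reads of near-identical HLA genes can be shared between them. TAP1 was lower by 1.70 ± 0.25, at 67.7 to 76.5 CPM with INK128 and 164 to 330 CPM with palbociclib. The class I gene HLA-E was lower by 1.02 ± 0.24. Among class II genes HLA-DRA was lower (-0.97 ± 0.34, adjusted p = 0.0229), CD74, the invariant chain, overlapped (-0.53 ± 0.31, adjusted p = 0.161), and CIITA, the master activator of class II, was the member that was higher. CIITA stood at 124, 238, 246 and 203 CPM with INK128 and 151, 112, 88 and 136 CPM with palbociclib (0.74 ± 0.29, adjusted p = 0.0429). That call was lost, with adjusted p from 0.0564 to 0.128, without any one of INK128 replicates 2, 3 and 4 or palbociclib replicates 2, 3 and 4. Within replicates 3 and 4 alone the median of the list was -0.65.

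**Figure D3:**
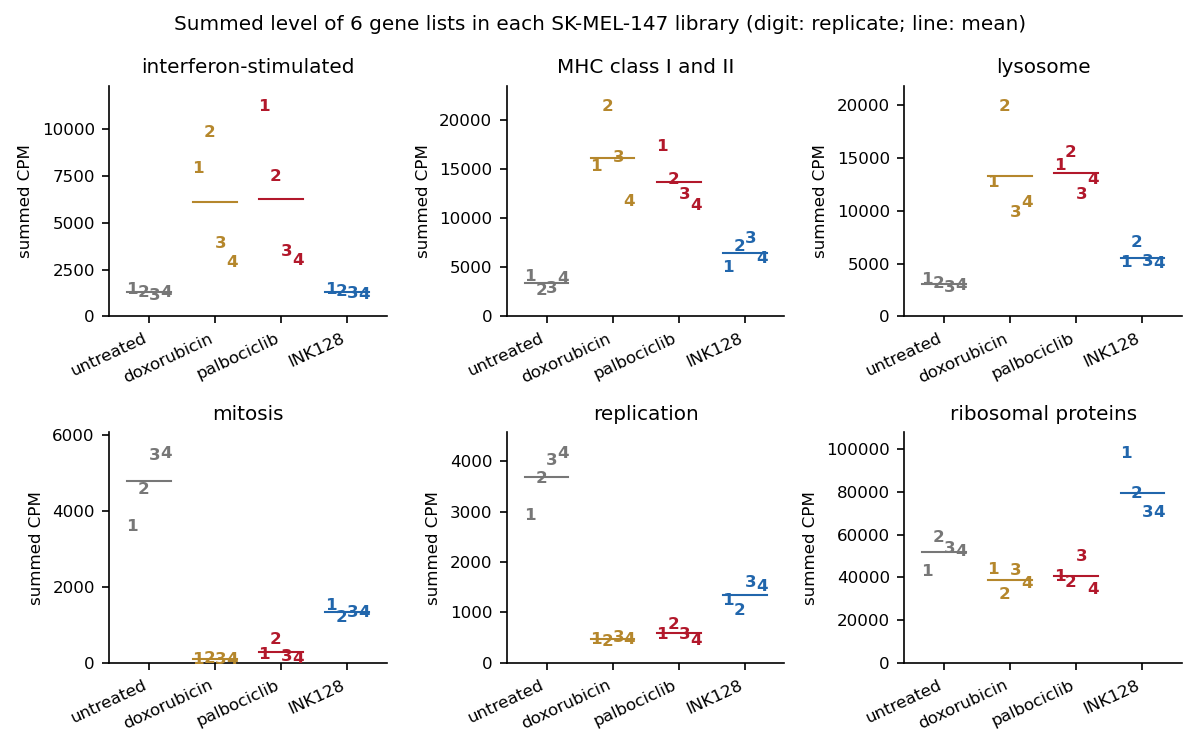
Summed CPM of 6 gene lists in each of the 16 SK-MEL-147 libraries, with the digit giving the replicate and the line the mean of the 4 libraries of a group. INK128 libraries lie at the untreated level for interferon-stimulated genes, between untreated and palbociclib for mitosis, replication and lysosome genes, and above every other group for ribosomal proteins.

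Proliferation genes were higher with INK128 than with palbociclib and lower than in untreated cells. Of the 25 mitosis genes 24 were higher with INK128 and none was lower, with a median of 2.27, and of the 25 replication genes 24 were higher and none lower, with a median of 1.23. Mitosis genes summed to 1522, 1204, 1326 and 1338 CPM with INK128 and to 223, 619, 176 and 113 CPM with palbociclib. Untreated libraries held 3593 to 5522 CPM and doxorubicin libraries 97.2 to 105 CPM. The sum in palbociclib replicate 2 was above that of the other palbociclib libraries and below each INK128 library. Without palbociclib replicate 2 the median of the mitosis list was 3.13, and 23 or 24 of the mitosis genes were higher without any one library. Within replicates 1 and 2 alone 20 mitosis and 14 replication genes were higher. In bulk RNA, fewer cycling cells and less of such RNA in each cell cannot be told apart.

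MKI67, the proliferation marker Ki-67, stood at 132, 136, 142 and 151 CPM in the INK128 libraries and at 8.75, 47.6, 0.231 and 0.0313 CPM in the palbociclib libraries. The INK128 values lay close together and the palbociclib values spread widely, and the groups did not overlap (3.35 ± 0.99, edgeR adjusted p = 0.00978). Without palbociclib replicate 2 the difference was 5.54 ± 0.95. RRM2, the regulated subunit of ribonucleotide reductase, was at 101, 68.2, 178 and 140 CPM with INK128 and 6.96, 25.1, 1.16 and 0.876 CPM with palbociclib (3.89 ± 0.73, adjusted p = 0.000347). The untreated means of MKI67 and RRM2 were 545 and 422 CPM, above both groups. Thymidine kinase TK1 (3.26 ± 0.52), the mitotic kinase CDK1 (3.15 ± 0.75), topoisomerase TOP2A (3.06 ± 0.67), the chromosomal passenger kinase AURKB (3.57 ± 0.58) and the spindle protein ASPM (3.32 ± 0.73) were higher as well. Among the 12 largest rises by the rule were also IQGAP3 (4.06 ± 0.64), HMMR (3.88 ± 0.71) and the kinesin KIF18B (3.68 ± 0.64). CCNB1 overlapped between the groups although it was called (0.85 ± 0.23).

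Windows around the start of mitotic genes are shown because many hold TTTGAA, the core of the cell cycle homology region that the DREAM complex reads. It was found on either strand in 13 of 20 matched mitosis promoters (65%), in 10.1% of those of the coding genes tested and in 15.4% of all windows. The E2F site TTTCCCGC was found in 7 of 21 replication promoters (33.3%), in 1 of 20 mitosis promoters (5%), in 2.57% of those of the coding genes tested and in 1.66% of all windows. Capitals mark TTTGAA in PLK1 at chr16:23678839-23678898 (plus strand), CCNB2 at chr15:59105096-59105155 (plus strand) and MKI67 at chr10:128126414-128126473 (minus strand).
PLK1: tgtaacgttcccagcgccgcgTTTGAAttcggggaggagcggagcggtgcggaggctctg
CCNB2: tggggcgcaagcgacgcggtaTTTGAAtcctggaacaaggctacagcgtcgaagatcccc
MKI67: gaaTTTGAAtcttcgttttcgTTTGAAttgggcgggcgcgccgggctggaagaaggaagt
PLK1, the polo-like kinase, and CCNB2, cyclin B2, were higher with INK128 by 2.30 ± 0.48 and 2.87 ± 0.45.

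The switches between G1 and S phase moved in both directions. Of 20 G1 control genes 9 were higher and 7 lower with INK128. CDKN1A (p21), the CDK inhibitor shared by many arrests, was at 635, 1143, 925 and 992 CPM with INK128 and at 806, 737, 796 and 1412 CPM with palbociclib. These values overlapped (-0.02 ± 0.28, adjusted p = 0.955), and both groups lay above the untreated mean of 354 CPM. As a list, 25 p53 targets gave 4 higher, 5 lower and a median of -0.08. Cyclin D1 (CCND1), the partner of the kinases that palbociclib blocks, was at 456, 590, 748 and 646 CPM with INK128 and 1205, 1183, 1425 and 1678 CPM with palbociclib (-1.17 ± 0.16, edgeR adjusted p = 1.85e-05). The paired E cyclins went opposite ways: CCNE2 was higher (3.14 ± 0.42) and CCNE1 lower (-1.51 ± 0.20), each without overlap. Of the INK4 inhibitors CDKN2C was higher (2.49 ± 0.45) and CDKN2B lower (-1.49 ± 0.23). E2F1 was higher (2.06 ± 0.25). MYC was higher by 0.49 ± 0.18 (adjusted p = 0.0331), at 16.4 to 19.7 CPM against 11.5 to 12.9 CPM, and this call was lost without INK128 replicate 3 or any one palbociclib library (adjusted p 0.0539 to 0.0909).

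Nuclear lamina and chromatin genes were mostly higher with INK128. Lamin B1 (LMNB1), whose loss marks senescence, stood at 70.2, 50.2, 70.2 and 70.8 CPM with INK128 and 10.5, 31, 9.4 and 5.1 CPM with palbociclib (2.25 ± 0.37, edgeR adjusted p = 0.000124), with an untreated mean of 225 CPM. The groups did not overlap, and palbociclib replicate 2 was again the highest of its group. The high mobility group proteins HMGB2 and HMGA1 were higher by 3.26 ± 0.40 and 2.67 ± 0.25, and the lamina-associated TMPO by 2.29 ± 0.27. Over the list 14 of 26 members were higher and 1, the chromobox protein CBX1, was lower (-1.04 ± 0.13), with a median of 0.41. Of 12 histone genes that yield polyadenylated transcripts 5 were higher and 4 lower, beside 26.8% and 25.8% over all genes. For so few members this is no clear departure from all genes. H2AC6 and H2BC12 were lower with INK128 (-3.27 ± 0.34 and -3.53 ± 0.23) while H2AX was higher (0.86 ± 0.18).

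Ribosomal protein transcripts were higher with INK128 almost without exception. Of 55 cytosolic ribosomal protein genes 53 were higher and none was lower, with a median of 0.89, a range from 0.26 to 1.58, and no overlap between the groups in 50 of them. They took 9.74%, 8.02%, 7.28% and 7.33% of the counts in the INK128 libraries and 4.04%, 3.8%, 4.69% and 3.43% in the palbociclib libraries, with a mean of 5.13% in untreated cells. INK128 libraries were all above the palbociclib libraries (2-sided exact permutation p = 0.0286, the smallest that 4 against 4 allows, adjusted p = 0.0429 over 6 shares). RPS6, the small-subunit protein that the mTOR pathway phosphorylates, was at 2861, 2109, 1944 and 1999 CPM with INK128 and 773, 794, 1087 and 732 CPM with palbociclib (1.40 ± 0.18, edgeR adjusted p = 1.51e-05). RPL12 differed by 1.58 ± 0.22, and INK128 replicate 1 was the highest library of both genes. Within replicates 3 and 4 alone 44 of these genes were higher and the median was 0.66. Without any one library 52 or 53 were higher.

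Other transcripts of the translation apparatus went both ways. Among 35 translation factors 16 were higher and 10 lower, beside 26.8% and 25.8% over all genes. The lower share was thus near that of all genes. The elongation factors EEF1A1 (13940 to 15790 CPM with INK128, 4780 to 6290 CPM with palbociclib; 1.45 ± 0.16) and EEF2 (0.99 ± 0.15), the tumour protein TPT1 (1.29 ± 0.17) and the initiation factor EIF4B (1.11 ± 0.13) were higher. EIF4EBP1, the translation brake that mTOR phosphorylates, overlapped between the groups at 77.9 to 104 and 90.5 to 163 CPM (-0.39 ± 0.17, adjusted p = 0.0723), and EIF4EBP2 was lower (-0.68 ± 0.14). Small nucleolar RNA host genes, whose spliced RNAs begin like ribosomal protein mRNAs, were higher for 12 of 15, among them GAS5 (1.78 ± 0.20) and SNHG29 (1.45 ± 0.16). Ribosome biogenesis factors did not follow: 3 of 35 were higher and 11 lower. The nucleolar methyltransferase FBL was the largest rise of that list (1.84 ± 0.21) and NOP16 the largest fall (-0.91 ± 0.13). Proteasome genes and chaperones held no higher member and 14 of 28 and 15 of 29 lower members, led by PSMB5 (-0.82 ± 0.11) and by DNAJB4 (-2.88 ± 0.37).

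The transcription starts of these genes are shown because mRNAs that open with a C and a run of pyrimidines form the class whose translation mTOR controls most closely. Annotated starts with a C followed by pyrimidines through the first 5 bases were found for 33 of 44 matched ribosomal protein genes (75%), for 5.51% of the coding genes tested and for 4.04% of all genes of the table. Capitals mark the pyrimidine run that begins at the annotated start in RPL12 at chr9:127451397-127451426 (minus strand), RPS6 at chr9:19380227-19380256 (minus strand), RPL13A at chr19:49487588-49487617 (plus strand), EEF2 at chr19:3985454-3985483 (minus strand) and the host gene SNHG5 at chr6:85678724-85678753 (minus strand).
RPL12: cttgtccgcgcgatttccggCCTCTCggct
RPS6: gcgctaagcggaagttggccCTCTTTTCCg
RPL13A: ccctgcgacaaaacctcctcCTTTTCCaag
EEF2: tgagtgttgacgtcagcgttCTCTTCCgcc
SNHG5: tactggctgcgcacttcggtCTTTTacgtc
RPL13A and SNHG5 were higher by 1.19 ± 0.15 and 0.81 ± 0.18. The counts are of RNA, and translation was not measured.

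Ribosomal protein pseudogenes, which can take reads of their parent genes, were higher for 311 of 410 tested and lower for 3, with a median of 0.95. Pseudogenes of all kinds took 10.4% ± 0.684 of the counts with INK128 and 6.57% ± 0.399 with palbociclib (SD, n = 4), long noncoding RNAs 1.39% ± 0.139 and 0.991% ± 0.0718, and nuclear protein-coding genes 84.3% ± 1.71 and 87% ± 0.71. Each of these 3 shares had a 2-sided exact permutation p = 0.0286 and an adjusted p = 0.0429. The share of the mitochondrial genome, 3.7% ± 0.907 and 5.26% ± 0.463, did not pass (exact p = 0.0571, adjusted p = 0.0686). INK128 replicate 1, at 5.06%, lay within the palbociclib range of 4.8% to 5.89%. Coding genes that were lower with INK128 had a median transcript length of 3349 bases and GC content of 49.8%. Those higher had 4248 bases and 46.4%, beside 3726 bases and 47.9% over all coding genes tested. Both properties were taken from the longest GENCODE 29 transcript of each gene, which need not be the one expressed here.

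Lysosome genes, which TFEB and its relatives activate when mTOR is off, were lower with INK128 than with palbociclib. Of 41 tested 33 were lower and 1 was higher, with a median of -1.12. Their sum was 5074, 6975, 5219 and 5032 CPM with INK128 and 14340, 15550, 11530 and 12930 CPM with palbociclib. Both groups were above the untreated range of 2760 to 3534 CPM, and INK128 replicate 2 was the highest of its group. Cathepsin B (CTSB), a lysosomal protease, was at 576, 623, 516 and 483 CPM with INK128 and 2081, 2285, 1964 and 1964 CPM with palbociclib (-1.92 ± 0.16, edgeR adjusted p = 2.52e-07), against an untreated mean of 410 CPM. GLB1, the enzyme behind the senescence-associated beta-galactosidase stain, was at 43.3, 56.2, 42.3 and 36.6 CPM with INK128 and 160, 168, 112 and 119 CPM with palbociclib (-1.65 ± 0.23, adjusted p = 2.95e-05), and INK128 libraries lay at or below the untreated mean of 56.6 CPM. Progranulin (GRN) and the membrane protein LAMP1 were lower by 1.78 and 1.43 on the log2 scale. Cathepsin K (CTSK) was the higher member (1.18 ± 0.26). TFEB itself overlapped (-0.04 ± 0.25, adjusted p = 0.91) and TFE3 was slightly lower (-0.39 ± 0.12).

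The promoters of 3 lysosome genes are shown because they hold TCACGTGA, an E-box of the kind that TFEB binds. It was found in 5 of 26 matched lysosome promoters (19.2%), in 1.95% of those of the coding genes tested and in 1.04% of all windows. Capitals mark it in LAMP1 at chr13:113297149-113297248 (plus strand), CTSA at chr20:45891245-45891334 (plus strand) and GAA at chr17:80101491-80101580 (plus strand).
LAMP1: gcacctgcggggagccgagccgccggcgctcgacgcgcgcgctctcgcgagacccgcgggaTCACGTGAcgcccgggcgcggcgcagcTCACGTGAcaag
CTSA: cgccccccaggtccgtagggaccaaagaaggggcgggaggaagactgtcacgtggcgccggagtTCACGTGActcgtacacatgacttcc
GAA: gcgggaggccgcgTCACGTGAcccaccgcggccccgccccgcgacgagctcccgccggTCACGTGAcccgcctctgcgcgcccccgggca
CTSA, the protective protein cathepsin A, and GAA, acid alpha-glucosidase, were lower with INK128 by 1.56 ± 0.17 and 1.19 ± 0.21.

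Autophagy genes followed less strongly, with 15 of 32 lower, 1 higher and a median of -0.33. MAP1LC3B, the autophagosome protein LC3B, was lower (-1.23 ± 0.13), at 50.8 to 71.9 CPM with INK128, 142 to 159 CPM with palbociclib and 54.1 CPM in untreated cells. The cargo receptor SQSTM1 (p62) overlapped, at 376 to 624 CPM and 505 to 638 CPM (-0.17 ± 0.19, adjusted p = 0.466). Of 33 transcripts of the mTOR pathway itself 5 were higher and 11 lower, with a median of -0.11. The higher share was below the 26.8% over all genes, and the lower share was somewhat above 25.8%. MTOR was at 53.1 to 74.9 CPM and 61.9 to 80.5 CPM (-0.10 ± 0.11, adjusted p = 0.476), while AKT1S1 (PRAS40), an inhibitory subunit of complex 1, was lower (-0.95 ± 0.13). The count of higher pathway genes depended on single libraries: 1 without INK128 replicate 2 or without palbociclib replicate 3, 2 without INK128 replicate 4, 3 without INK128 replicate 3 or without palbociclib replicate 1.

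Secretory factors were lower with INK128 more often than higher, though single genes went both ways. Of 44 listed genes 37 passed the count filter, of which 16 were lower with INK128, 5 were higher and 16 were not called, with a median of -0.59. Over all genes tested 25.8% were lower and 26.8% higher. The median of the list was -0.36 without palbociclib replicate 1 and -0.092 within replicates 3 and 4 alone. The summed level was 2902 to 3263 CPM with INK128 and 9566 to 13910 CPM with palbociclib, without overlap. Untreated libraries summed to 1938 to 2558 CPM. Such a sum follows its most counted members. TGFB2, a growth factor of the transforming growth factor beta family, was at 4.62, 5.26, 10.2 and 10.1 CPM with INK128 and 92.7, 95.9, 139 and 171 CPM with palbociclib. The groups did not overlap, and the INK128 values lay under the untreated mean of 22.8 CPM (-4.05 ± 0.35, edgeR adjusted p = 2.68e-07). CCL2, the monocyte chemoattractant MCP-1, had 2 counts in all INK128 libraries against 6870, at 67.2, 103, 72.5 and 39.2 CPM with palbociclib. The ratio of levels was 3873, with a 95% counting interval of 1072 to 31990, and the untreated mean was 0.458 CPM. CXCL10, an interferon-induced chemokine, had no count with INK128 and was at least 70.3-fold higher with palbociclib, with the same floor of 3 counts.

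IL32 (-4.21 ± 0.42), the plasminogen activators PLAT (-2.31 ± 0.26) and PLAU (-2.19 ± 0.46) and the macrophage growth factor CSF1 (-2.04 ± 0.50) were lower too. IGFBP7 and IGFBP3, secreted binders of insulin-like growth factors, were lower by 3.54 ± 0.24 and 3.14 ± 0.41, and 10 of 13 members of their list were lower with none higher. IL1A, an interleukin-1 cytokine, was at 82.6, 63.4, 57.4 and 69.1 CPM with INK128 and 28.2, 30.6, 18.3 and 18.2 CPM with palbociclib (1.52 ± 0.29, adjusted p = 0.000375), against 23.5 CPM in untreated cells. IL1B overlapped at 132 to 171 CPM and 94.5 to 145 CPM (0.27 ± 0.26, adjusted p = 0.388), and both groups were above the untreated mean of 10.6 CPM. CXCL8 (interleukin-8) was at 8.49, 6.85, 13.6 and 6.84 CPM with INK128 and 11, 3.6, 1.54 and 1.38 CPM with palbociclib, overlapping through palbociclib replicate 1 (1.03 ± 0.63, adjusted p = 0.184); without that library it was higher (2.07 ± 0.61, adjusted p = 0.0106), as it was within replicates 3 and 4 alone (2.81 ± 0.34), and within replicates 1 and 2 it was not (0.05 ± 0.54). LIF (0.90 ± 0.13), the hormone STC1 (1.33 ± 0.34) and the neutrophil chemokines CXCL2 and CXCL3, which stayed below 3 CPM in every library (1.67 ± 0.60 and 1.58 ± 0.49), were higher. IL6 stayed below 1.6 CPM in every library and was lower with INK128 (-1.70 ± 0.45). Within replicates 3 and 4 alone 12 factors were higher and 16 lower.

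**Figure D4:**
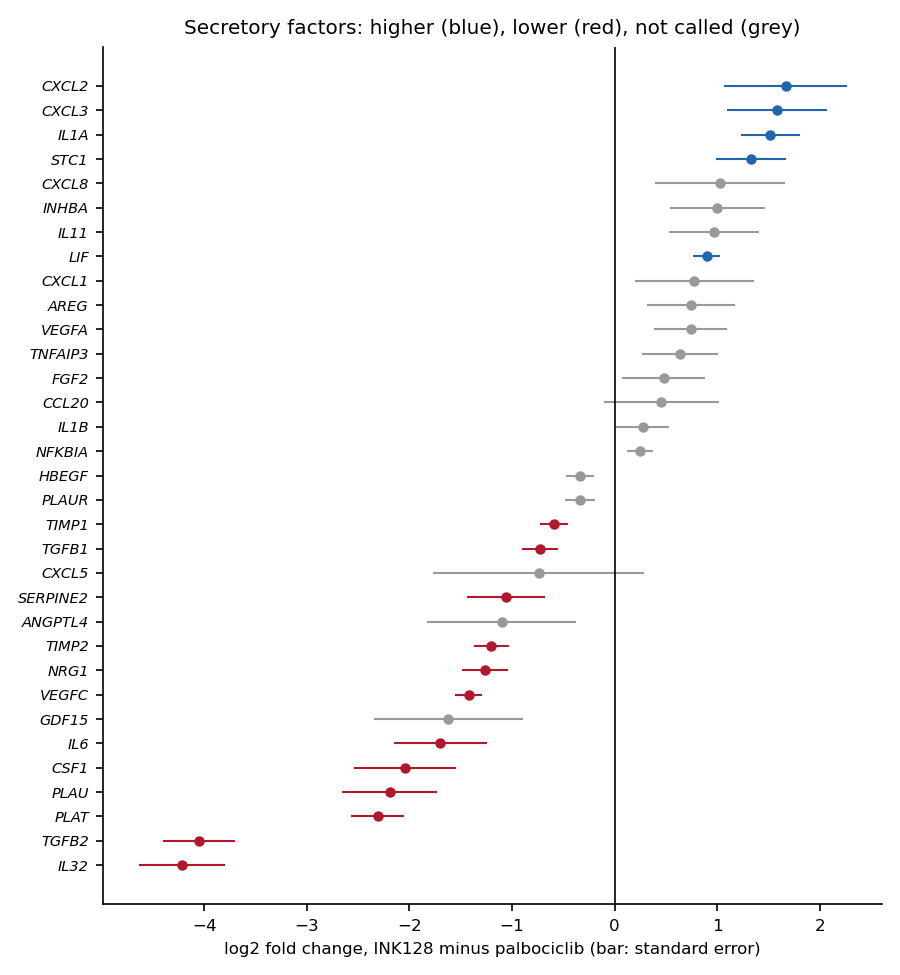
Log2 fold change (INK128 minus palbociclib) of the tested secretory factors with bars of 1 standard error, blue for genes called higher, red for genes called lower and grey for the others. CCL2, CXCL10 and TNFSF10, with 3 or fewer counts in the INK128 libraries, are not drawn, and 1 further member is left out. TGFB2 and IL32 lie near -4 and IL1A, STC1 and LIF above 0.

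Matrix genes were lower with INK128. Of 28 matrix and collagen genes tested, out of 35 listed, 17 were lower and 4 higher, with a median of -1.57. COL4A1, a chain of basement membrane collagen, was at 38.4, 37.8, 53.3 and 53.2 CPM with INK128 and 348, 445, 782 and 1003 CPM with palbociclib (-3.82 ± 0.34, edgeR adjusted p = 3.27e-07). COL4A2, which shares its promoter region, was lower by 2.67 ± 0.31, fibronectin (FN1) by 3.06 ± 0.41 and COL1A1 by 5.66 ± 0.65. For COL4A1 and COL1A1 the INK128 libraries also lay below the untreated means of 68.5 and 1.04 CPM. COL9A3 (3.81 ± 0.73), COL16A1 (1.60 ± 0.35) and COL7A1 (1.28 ± 0.31) went the other way. Proteases and their inhibitors followed the fall with 13 of 19 lower and 1 higher, among them the gelatinase MMP2 at 324 to 802 CPM and 1566 to 2217 CPM (-1.57 ± 0.24).

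Fibroblast markers were lower with INK128 too, but their list shares COL1A1 with the matrix list and is not independent of it. The 11 markers summed to 8.02 to 25 CPM with INK128 and 95.2 to 173 CPM with palbociclib, with untreated cells at 17 to 24.9 CPM, and all 3 that could be tested were lower. LUM, a small matrix proteoglycan, made up most of the palbociclib sum at 78.1, 124, 84.7 and 127 CPM. The defining markers DCN and THY1 had no count in any of the 8 libraries and COL3A1 reached 0.277 CPM. Contractile and YAP target genes were lower for 18 of 30 and higher for none. Calponin (CNN1) was at 0.253, 0.331, 0.264 and 0.181 CPM with INK128 and 7.43, 4.99, 46.8 and 31.7 CPM with palbociclib (-6.46 ± 0.99), and transgelin (TAGLN) at 3.14, 2.28, 1.32 and 2.35 CPM and 4.27, 6.48, 80.7 and 50 CPM (-3.95 ± 0.90). For both, palbociclib replicates 3 and 4 were above replicates 1 and 2, and within replicates 1 and 2 TAGLN was not called (-0.98 ± 0.34, adjusted p = 0.0507). CCN1 (-1.76 ± 0.29) and ANKRD1 (-2.13 ± 0.46), targets of YAP, were lower. CCN2, a further YAP target, was called lower but overlapped (-0.71 ± 0.24, edgeR adjusted p = 0.0221). The contractile gene ACTA2 was not called (-0.86 ± 0.48, edgeR adjusted p = 0.139). Integrins and laminins gave 11 of 21 lower and 5 higher, with the fibronectin receptor chain ITGA5 lower (-1.58 ± 0.18) and ITGA6 higher (1.12 ± 0.21).

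Of the MAPK feedback genes 14 of 25 were higher with INK128, while their summed level overlapped between the groups. Melanomas commonly carry an activated RAS or RAF pathway, whose output is read from genes that ERK switches on. Another 2 were lower and 9 were not called, with a median of 0.86. Their sum was 2886, 2991, 2962 and 2754 CPM with INK128 and 2725, 2677, 2887 and 3093 CPM with palbociclib, overlapping, with untreated libraries at 2102 to 2167 CPM. ETV4, an ETS factor under ERK control, was at 21.5, 14.4, 9.27 and 11.1 CPM with INK128 and 1.36, 2.1, 0.616 and 0.626 CPM with palbociclib (3.63 ± 0.44, edgeR adjusted p = 6.04e-06), with an untreated mean of 30.3 CPM. EGR1 (3.73 ± 0.63), ETV1 (3.38 ± 0.43) and the RAS pathway inhibitor SPRY4 (2.92 ± 0.33) were higher, as were SPRY2 (1.51 ± 0.19) and the ERK phosphatase DUSP6 (0.90 ± 0.20). ETV5 overlapped (0.40 ± 0.42, adjusted p = 0.436). SPRY2 and ETV1 were above their untreated means of 67.7 and 20.3 CPM in every INK128 library. The 2 lower members were the cyclin CCND1, given above, and JUND.

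Insulin signalling and FOXO target genes were mixed. Of 29 tested 11 were higher and 10 lower, beside 26.8% and 25.8% over all genes. Leaving out each library in turn gave 7 to 12 higher, the fewest without palbociclib replicate 3. IRS2, an insulin receptor substrate that FOXO factors induce, was at 53.1, 54.9, 51.6 and 57.5 CPM with INK128 and 14.2, 20.1, 12 and 21.9 CPM with palbociclib (1.67 ± 0.21, edgeR adjusted p = 8.28e-06), with an untreated mean of 42.3 CPM. FOXO1 was higher (2.57 ± 0.34), at 11.1 to 26.8 CPM against 1.89 to 3.59 CPM and 1.38 CPM in untreated cells. ERBB3, a receptor that recovers under PI3K and mTOR inhibitors, was called higher (3.05 ± 0.62), but INK128 replicate 1 at 1.46 CPM lay inside the palbociclib range. PIK3IP1, an inhibitor of PI3K (-2.40 ± 0.25), the mitochondrial superoxide dismutase SOD2 (-2.04 ± 0.26) and TXNIP, a brake on glucose uptake (-0.79 ± 0.18), were lower.

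Several metabolic lists held a larger share of lower members than the 25.8% of all genes. Serine and folate genes lay near the background in both directions, and cholesterol synthesis genes lay below it in both. Cholesterol synthesis had 1 of 23 higher and 4 lower, fatty acid synthesis 2 of 13 and 6, serine and folate 6 of 22 and 5, and ATF4 targets 5 of 25 and 8. The lower count of the serine and folate list was 3 without palbociclib replicate 3. The amino acid carrier SLC7A5 was at 34.5, 160, 85.1 and 87.1 CPM with INK128 and 14.1, 19.1, 5.2 and 4.73 CPM with palbociclib (3.10 ± 0.62), and the stress factor NUPR1 was lower (-4.39 ± 0.56). Glycolysis and hypoxia genes were lower for 13 of 26 and higher for 3, among them the glucose transporter SLC2A1 at 79.8 to 134 CPM and 258 to 454 CPM (-1.66 ± 0.21) and the lactate carrier SLC16A1 (-1.26 ± 0.12). Nuclear genes of the respiratory chain were lower for 17 of 36 with 1 higher, and mitochondrial ribosome genes for 11 of 29 with 1 higher. The NRF2 and antioxidant list had 12 of 22 lower and 2 higher. Of 13 MYC network genes 5 were higher and 4 lower, and the higher count was 3 without INK128 replicate 3 or without any one of the 4 palbociclib libraries. Complement gave 8 of 13 lower and 2 higher, metallothioneins 1 of 7 lower, and the mitochondrial mRNAs 4 of 13 lower.

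Single melanoma state genes moved both ways. SOX10 was at 527, 609, 596 and 620 CPM with INK128 and 230, 166, 255 and 238 CPM with palbociclib (1.41 ± 0.17, edgeR adjusted p = 5.66e-06), with an untreated mean of 313 CPM between the groups. MITF, the melanocyte master factor, was low in both at 3.81 to 5.99 CPM and 5.74 to 7.54 CPM (-0.36 ± 0.16, adjusted p = 0.0619). Of 24 melanocyte lineage genes 14 could be tested, 5 higher and 3 lower, beside 26.8% and 25.8% over all genes. For so few members this is no clear departure from all genes. The median of the list was 0.21, and -0.10 within replicates 1 and 2 alone. The dedifferentiation list had 9 of 21 higher and 6 lower: the receptor AXL (0.74 ± 0.13) and the ectonucleotidase NT5E (CD73; 1.99 ± 0.39) were higher, and SNAI2 (-1.07 ± 0.29) and SOX9 (-1.65 ± 0.37) lower. Among the BCL2 family, the target of senolytic drugs BCL2L1 (BCL-XL) was at 177, 200, 179 and 168 CPM with INK128 and 348, 352, 401 and 427 CPM with palbociclib (-1.08 ± 0.12, adjusted p = 2.07e-06). BCL2 was higher (2.01 ± 0.28), and the effector BAK1 and the family member BID were lower (-1.61 ± 0.12 and -1.82 ± 0.16).

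The remaining genes among the 12 largest changes in each direction belonged to none of these lists. SULT1B1, a sulfotransferase of small phenols and thyroid hormones, was at 43, 50.4, 82.3 and 108 CPM with INK128 and 2.37, 1.94, 2.16 and 1.72 CPM with palbociclib (5.12 ± 0.31, edgeR adjusted p = 1.6e-08), with an untreated mean of 50.1 CPM. The small MAF factor MAFF (4.34 ± 0.24) and the nuclear envelope linker SYNE2 (4.06 ± 0.41) were likewise near their untreated means of 28.9 and 60.3 CPM. CYP4F3 and CYP4F2, fatty acid hydroxylases on chromosome 19 whose reads can be confused, were higher by 4.24 ± 0.57 and 3.91 ± 0.54 and stood above the untreated means of 2.09 and 1.55 CPM in every INK128 library. KLF5 (3.75 ± 0.29), a zinc finger factor, was also above its untreated mean of 13.2 CPM. DMBT1, a mucin-like protein, was higher (3.77 ± 0.98), with 5.04 to 46.4 CPM against 3.37, 3.05, 0 and 0 CPM. TENM2, a teneurin adhesion protein, had 20 counts with INK128 and was at 17.5, 39, 68.3 and 85.2 CPM with palbociclib (-8.28 ± 0.66).

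**Figure D5:**
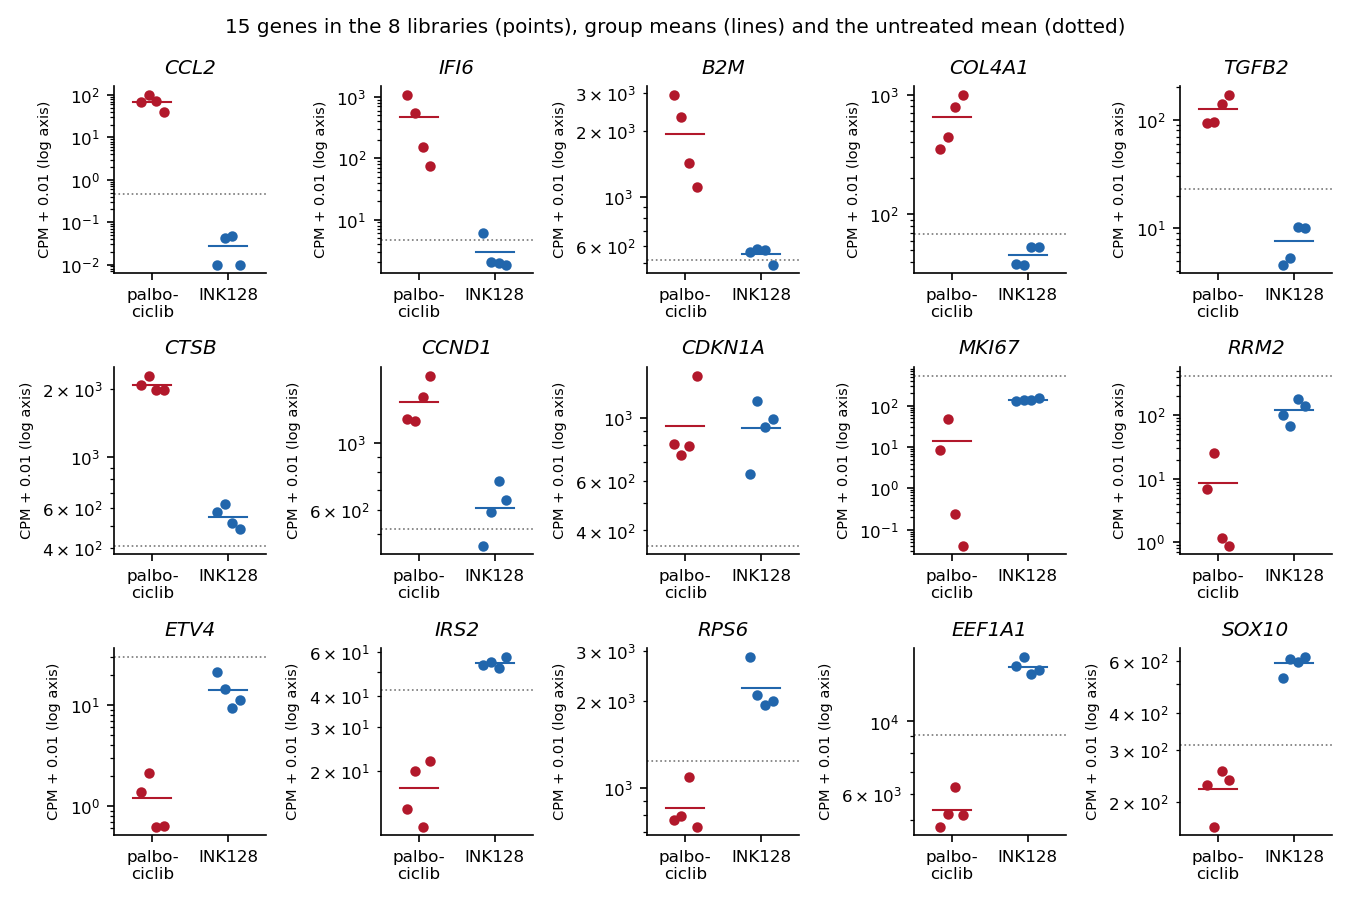
CPM plus 0.01, on log axes, of 15 genes in the 4 palbociclib (red) and 4 INK128 (blue) libraries, with lines at the group means and a dotted line at the untreated mean. The groups overlap for CDKN1A alone among these genes, the untreated line runs near the INK128 points for B2M and CCND1, and it lies above both groups for MKI67 and RRM2.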

How the data were processed

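Stranded polyadenylated RNA was sequenced per the labels' protocols. The authors deposited whole-number read counts per gene, made with STAR 2.7.10a and featureCounts on GRCh38.p13 per the submitters' processing notes; the annotation, the strand setting and the treatment of multi-mapping reads are not given in the sources used here. The table held 60728 genes in 32 libraries, and symbols were found for 60659 of them; gene positions are those of GENCODE 29. Near-identical genes (HLA genes, ribosomal protein genes and their pseudogenes, CYP4F2 and CYP4F3) are less certain.

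All 16 SK-MEL-147 libraries were fitted in 4 groups with edgeR 4.0.16 (limma 3.58.1, R 4.3.3), with TMM factors, the group-wise filter on low counts and the quasi-likelihood test of INK128 minus palbociclib, so that the groups share one estimate of the spread. P-values were adjusted by Benjamini-Hochberg over all genes tested and called under 0.05. Standard errors follow from the fold change and its F statistic. CPM are on TMM-scaled totals. Shares were compared by exact permutation with scipy 1.17.1 (Python 3.11.15, pandas 2.3.3, matplotlib 3.10.9). Nearness of the untreated or doxorubicin mean was judged on log2(CPM + 0.5). Counting intervals and floors cover counting error only, since reads carry no molecular identifiers.

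Named genes were the 12 largest rises and 12 largest falls among called coding genes of at least 10 CPM whose groups did not overlap, a panel of 22 genes, and up to 3 called members of at least 5 CPM for each list and direction. Others were named for their roles, some after their values were seen. The 40 lists, the 4 marker lists and the members were chosen with earlier results of these data known. Promoters were RefSeq windows of GRCh38.p14; motifs were searched on both strands, and first bases on the sense strand.

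Replicate numbers were not treated as pairs: deviations of same-numbered INK128 and palbociclib libraries correlated by 0.444, 0.0667, 0.301 and 0.341, not all above 0.1. On simulated counts for this comparison (18516 genes, 200 changed) edgeR recovered 17.9%, 50.7% and 81.8% of changes of 1.5, 2 and 4-fold, with 3.85% of 104 calls false; DESeq2 1.42.0 recovered 34.3%, 59.7% and 90.9%, with 12.1% of 140 calls false. Far fewer genes changed in the simulation than the 52.6% called in the data, so its rates do not carry over directly. Alternatives were other scalings and filters, DESeq2, fewer libraries, a replicate block, a test against a fold of 1.5 and the omission of each library. Another 3 (replicates 1 and 2 alone, replicates 3 and 4 alone, and a term for these pairs) were chosen after seeing the data. A few members of the lists are not reported here by name.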

Additional observations from a re-analysis of the deposited data

Results flagged for a closer look

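In 33 of 456 groups of 4 libraries examined (7.24%), 1 library lay far from the other 3; chance gives about 1 in 20. INK128 replicate 1 was that library in 16 of the 33, and the part of this library in the results was tested only by leaving it out. It was the high one for BST2 (0.0317 CPM, a single count against none in the other libraries, which meets the criterion by construction), IFI6 (6.11 CPM), IFIT1 (6.02 CPM), OASL (0.38 CPM), HMGB2 (184 CPM), MXD3 (21.2 CPM), LIF (177 CPM), SOX9 (24.4 CPM), OCLN (9.22 CPM), MT-CO2 (4637 CPM), MT-CO1 (14030 CPM) and the share of the mitochondrial genome (5.06%). It was the low one for FADS1 (87.9 CPM), ATG9A (9.5 CPM), WNT5A (22.5 CPM) and the share of nuclear protein-coding genes (81.7%). The call of WNT5A (-1.28) was lost without this library (adjusted p = 0.0655), and also without palbociclib replicate 3 or 4 (adjusted p = 0.0769 and 0.072).

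INK128 replicate 2 was high for GRN (223 CPM), SOX2 (23 CPM) and the summed level of the lysosome genes (6975 CPM) and low for LMNB1 (50.2 CPM) and NDUFB3 (25.4 CPM). INK128 replicate 3 was high for MYC (19.7 CPM) and INK128 replicate 4 low for B2M (492 CPM). Palbociclib replicate 2 was high for CCNE2 (3.66 CPM), ASPM (25.5 CPM), TMPO (36.5 CPM), CDKN2D (6.59 CPM) and GDF15 (2.38 CPM). Palbociclib replicate 3 was high for MAX (78.4 CPM) and low for XPC (44.3 CPM) and ITGA5 (472 CPM). Palbociclib replicate 4 was high for CDKN1A (1412 CPM) and SLC7A11 (24.2 CPM).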

How the results depend on the processing

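No gene called in the report was called the other way under any alternative run over all genes. Counts of higher and lower genes were 2769 and 2815 within replicates 1 and 2, and 2071 and 1858 against a fold of 1.5. Upper quartile factors gave 5496 and 4247, library size alone 5346 and 4336, the DESeq2 test 4871 and 5041. The replicate block gave 5653 and 5461 and raised the higher secretory factors from 5 to 10, and CXCL8 was called under it (1.54, adjusted p = 0.00521) and with a term for the pairs of replicates (1.47, adjusted p = 0.0209). Every INK128 library correlated best with the palbociclib library of its own number, and palbociclib replicate 2 best with INK128 replicate 1 (0.171), a hint from the data and not from the design. Within replicates 1 and 2 the replication median was 0.89 with 14 genes higher, and the melanocyte median was -0.10. Within replicates 3 and 4 the medians were 1.56 (replication), 3.57 (mitosis), -1.23 (interferon-stimulated), -0.65 (MHC), -1.43 (matrix), -0.092 (secretory), 0.042 (cholesterol) and -0.42 (metallothioneins), and CDKN1B and GDF15, not called, stood at -0.15 and 0.13. The secretory median was -0.35 with the 8 libraries alone. The metallothionein median was -0.0049 with the block and -0.012 with a term for the pairs of replicates. The ATF4 median was 0.055 with upper quartile factors, 0.044 with library size alone and 0.0099 at a mean CPM of at least 1. CDKN1A was 0.0405, 0.032 and 0.011 under the same 3 settings and 0.20 within replicates 1 and 2, never called.

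Leaving out each library in turn, medians ran from -1.58 to -1.38 (matrix), -0.67 to -0.36 (secretory), -0.0903 to 0.025 (ATF4), -0.00598 to 0.387 (melanocyte) and -0.38 to 0.087 (metallothioneins), CDKN1A from -0.15 to 0.24 and CDKN1B from -0.053 to 0.344. Share differences ran from 3.56 to 4.38 points (ribosomal proteins), 0.337 to 0.443 (long noncoding RNA), -3.09 to -1.86 (coding) and 3.48 to 4.00 (pseudogenes), and 3 against 4 libraries cannot reach the threshold. The 50 most counted genes took 16.82% of the counts with INK128 and 16.05% with palbociclib. This difference of 0.77 points did not pass (2-sided exact permutation p = 0.371). Without the mitochondrial genome in the total it was 2.43 points (exact permutation p = 0.0286). The cause of these changes was not tested.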

Other observations

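Genes that encode no protein leaned towards INK128. Of 2276 long noncoding RNA genes tested 793 were higher and 253 lower, with a median of 0.45, beside 3095 higher and 4136 lower of 13025 coding genes, with a median of -0.07. These classes were compared after their values were seen, and the difference between them was not tested.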
